A study of Mus musculus with 69 samples.

Results

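Among 66 single cells picked from the ventricular and subventricular zones (VZ/SVZ) of the embryonic mouse dorsal forebrain, 28 had a signal above 50 for Eomes, the T-box transcription factor (Tbr2) that marks intermediate progenitors. These 28 cells were divided by Neurod1, a basic helix-loop-helix (bHLH) factor of the neuronal lineage, into 14 cells with a Neurod1 signal above 50 and 14 cells at or below 50. Each gene was represented by the probe set of highest mean log2 signal among those assigned to that gene alone. The series as analysed here holds 69 cells, the remaining 38 VZ/SVZ cells having Eomes at or below 50 and 3 cells coming from the cortical plate (CP), the layer of postmitotic neurons.

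All cells came from CD1 mice at embryonic day 14, an outbred wild-type strain, from trypsin-dissociated fragments of the dorso-lateral cerebral wall, and were picked by hand at random with a glass capillary. Each was lysed in a tube, and its cDNA was amplified and hybridised to an Affymetrix expression array. In the study 102 cells were amplified and 70 were put on arrays, so the cells analysed are a subset of those amplified. No genotype or treatment distinguished the groups. The labels name no animal, so the cells of a group count as 1 sample, and comparisons are given as sizes, per-cell ranges and shares of cells, with no test.

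In the developing neocortex, radial glia divide at the ventricle and express Pax6, Sox2 and Notch pathway genes. Many of their daughters become intermediate progenitors, which lose the apical attachment, switch on Eomes, divide mainly in the subventricular zone and produce pairs of glutamatergic neurons. The transcription factor sequence Pax6, Neurog2, Eomes, Neurod1, Tbr1 is the textbook order of this lineage, with Neurod1 appearing in later intermediate progenitors and newborn neurons.

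The values that chose the cells are given as a description. Neurod1 ranged from 159 to 1945 with a median of 826 in the cells with Neurod1, and from 0.485 to 12.7 with a median of 4.15 in the cells without it. The nearest cells on either side of the Neurod1 threshold were therefore at 159 and 12.7, and those at the Eomes threshold at 245 and 40.8. Eomes ranged from 541 to 4551 with a median of 2239 in cells with Neurod1, and from 245 to 3812 with a median of 1063 in cells without. A second Eomes probe set exceeded 50 in 13 of 14 cells with Neurod1, but in only 9 of 14 without. It did so in 1 of 38 other VZ/SVZ cells. A second Neurod1 probe set exceeded 50 in 11 of 14 cells with Neurod1 and in 1 of 14 without. Outside these cells, Neurod1 exceeded 50 in 3 of 38 other VZ/SVZ cells and in 0 of 3 CP cells.

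Detection was similar in both groups: 3770 to 5453 genes per cell exceeded 50 in cells with Neurod1 (median 4672), and 3778 to 5503 in cells without (median 4563), of 18194 genes measured. Of the spiked bacterial RNAs, phe at 20 copies per cell had a median 3′ signal of 894 in cells with Neurod1 and 975 in cells without. The thr spike at 5 copies exceeded 50 in 4 of 14 cells with Neurod1 and in 7 of 14 without, so transcripts present in a few copies were detected irregularly. The sample titles carry a letter whose meaning the labels do not give. The cells with Neurod1 comprised 6 of letter B, 5 of C and 3 of X, and the cells without it 7 of B, 2 of C and 5 of X. Letters A and D together held 14 VZ/SVZ cells with Eomes at or below 50 and no Eomes cell, so the letters are not independent of the cells' identity.

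The label of intermediate progenitor was set against markers other than those that chose the cells. Of 22 intermediate progenitor markers, between 12 and 17 exceeded 50 per cell with Neurod1 (median 15) and between 5 and 16 per cell without (median 12.5), while the other VZ/SVZ cells had 4 to 12 (median 8). Within that last range lay replicates 13, 15, 36, 45, 47, 52 and 54 without Neurod1, and replicate 26 with it. Those without Neurod1 also had 20 to 24 of the apical progenitor markers described below. The remaining cells without Neurod1 had 13 to 16 intermediate progenitor markers. Insm1, a zinc-finger factor that promotes the generation of these progenitors, exceeded 50 in 14 of 14 cells with Neurod1 and in 13 of 14 without. Gadd45g, a stress and growth-arrest gene of the same lineage, did so in 13 cells with Neurod1 and 11 without, against 4 of 38 other VZ/SVZ cells. None of the measured markers of interneurons (10), Cajal-Retzius cells (10), endothelium (8), microglia (8), red cells (7), pericytes and meninges (8) or oligodendrocyte precursors (6) exceeded 50 in 6 or more Eomes cells. The summed interneuron markers had a median of 37.5 in cells with Neurod1 and 32.9 in cells without, but reached 1340 in 1 cell with Neurod1, in which Dlx2, Gad1 and Lhx6 exceeded 50. Without this cell, 564 genes were higher and 559 lower, in the terms defined below. This cell, replicate 63, also held the highest signal among cells with Neurod1 for Rnd2, Sstr2, Neurod6, Neurod2, Tubb3, Mki67 and Cdk1. It did not do so for Cxcl12, Dcx or Crmp1. The summed Cajal-Retzius markers had a median of 49.9 with Neurod1 and 44.6 without, with a highest value of 1378 with Neurod1 and 268 without. The summed pericyte and meningeal markers had a median of 38.1 with Neurod1 and 40.9 without, and their highest value was 57 with Neurod1 and 640 without. The part of these single cells in the results below was not tested, but leaving out each cell in turn kept the sign of all 93 named differences of at least 1, of which 89 to 93 stayed at 1 or more.

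Differences below are mean log2 signals of the cells with Neurod1 minus those of the cells without, with values under 50 set to 50. A gene is called higher or lower where the difference is at least 1, a rule of size. Over the 7319 genes above 50 in at least 6 of the 28 Eomes cells, 607 genes were higher in cells with Neurod1 (8.29%) and 540 were lower (7.38%). The counts of list members given below are to be read beside these shares. At a difference of at least 2, 72 genes were higher (0.984%) and 52 were lower (0.71%). The median over all 7319 genes was 0.02. In 0 of the 7319 genes were the ranges of the groups separate: each gene had overlapping per-cell ranges.

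The contrast ran from apical progenitor genes to neuronal genes. Of 28 apical progenitor markers, 25 were counted, of which 20 were lower in cells with Neurod1 and 0 were higher, with a median difference of -1.74. Of 25 neuron markers measured, 19 were counted, of which 13 were higher and 1 was lower, with a median of 1.56. The apical median was -1.02 within letter B, 0 within C, with 5 cells with Neurod1 and 2 without, and -2.97 within X, and it was -0.95 without the cells of letter X. The neuron median was 1.40 within letter B, 0.52 within C and 3.38 within X. The size of the contrast thus differed between the letters, and in the few cells of letter C the apical markers had no median difference. Per cell, 8 to 17 apical markers exceeded 50 in cells with Neurod1 (median 12) and 12 to 24 in cells without (median 21). Neuron markers numbered 9 to 17 per cell with Neurod1 (median 15.5) and 4 to 13 per cell without (median 8). The groups overlapped on both axes, and the highest count of apical markers in a cell without Neurod1, 24, was close to the median of 24.5 in the other VZ/SVZ cells. The 3 CP cells, with 3 to 6 apical and 22 to 23 neuron markers, lay beyond the cells with Neurod1. The other VZ/SVZ cells were mixed, with 3 to 27 apical and 6 to 24 neuron markers. Replicates 29 to 35, 38, 51 and 65 of these had 18 to 24 neuron markers, and the rest had 6 to 11.

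**Figure D1:**
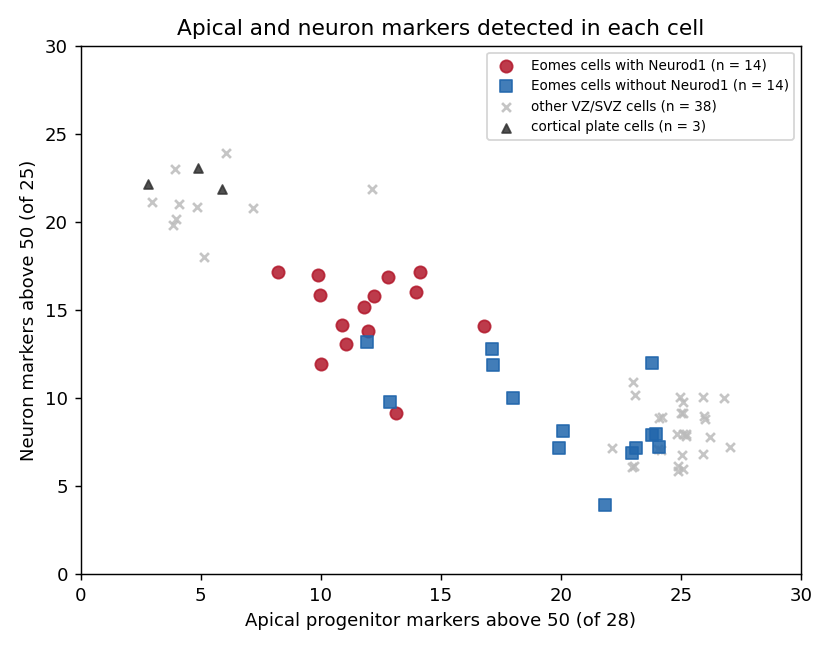
Each point is 1 cell; the x axis counts apical progenitor markers above 50 (of 28) and the y axis neuron markers above 50 (of 25), with points shifted slightly so that coinciding cells can be seen. Cells with Neurod1 (circles) lie at 8 to 17 apical and 9 to 17 neuron markers, cells without (squares) at 12 to 24 and 4 to 13, and CP cells (triangles) at 3 to 6 and 22 to 23.

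The 15 genes with the largest positive differences were led by Cxcl12, which encodes a chemokine ligand secreted by intermediate progenitors. Cxcl12 had signals of 2.31 to 4096 with a median of 1466 in cells with Neurod1, and of 1.31 to 137 with a median of 5.95 in cells without. It exceeded 50 in 12 of 14 cells with Neurod1 and in 1 of 14 without, a difference of 4.06, and was above 50 in 2 of 38 other VZ/SVZ cells and in 1 of 3 CP cells. The gap in shares was 78.6 percentage points (95% Newcombe interval 43.2 to 90.4, counting error only), and 12 cells with Neurod1 lay above every cell without it.

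Rnd2, which is needed for radial migration, ranged from 817 to 8069 with a median of 4283 in cells with Neurod1, and from 7.23 to 3857 with a median of 495 in cells without, a difference of 3.57. All 14 cells with Neurod1 exceeded the median of the cells without, and 9 exceeded their highest value. Sstr2, a somatostatin receptor of migrating cortical cells, ranged from 11.1 to 3887 (median 1049) with Neurod1 and from 1.46 to 743 (median 7.96) without, a difference of 3.08. It was detected in 13 cells with Neurod1 and 4 without, and in 5 of 38 other VZ/SVZ cells. Nrn1, encoding the neurite-outgrowth protein neuritin, differed by 3.94, with detection in 13 cells with Neurod1 and 4 without. Kif21b, a neuronal kinesin, differed by 3.85 and was detected in 14 cells with Neurod1 and 6 without. Lrrn3, a leucine-rich repeat membrane protein, differed by 3.64, being above 50 in 13 cells with Neurod1 and in 2 without. Serping1, the inhibitor of the complement protease C1, was above 50 in 14 cells with Neurod1 and in 3 without (difference 3.54), and in 2 of 38 other VZ/SVZ cells. The remaining members of the 15 were Carmil3, a regulator of actin capping (3.40), Neurod6 (3.24), the xylose phosphatase gene Pxylp1 (3.17), Tubb3 (3.12), the endosomal trafficking gene Nsg2 (3.11), Dcx (3.08), D430019H16Rik (3.08) and Crmp1 (3.04).

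Of these 15 genes, 10 exceeded 50 in all 3 CP cells, 5 in some of them and 0 in none. Their detection in the other VZ/SVZ cells ranged from 5.26% to 60.5% of cells. All 15 were higher within letter B, where the differences ran from 1.92 to 4.38, and all 15 were above 0 within letter X. Within letter C, with 2 cells without Neurod1, 14 were above 0 and Kif21b was at -0.67.

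**Figure D2:**
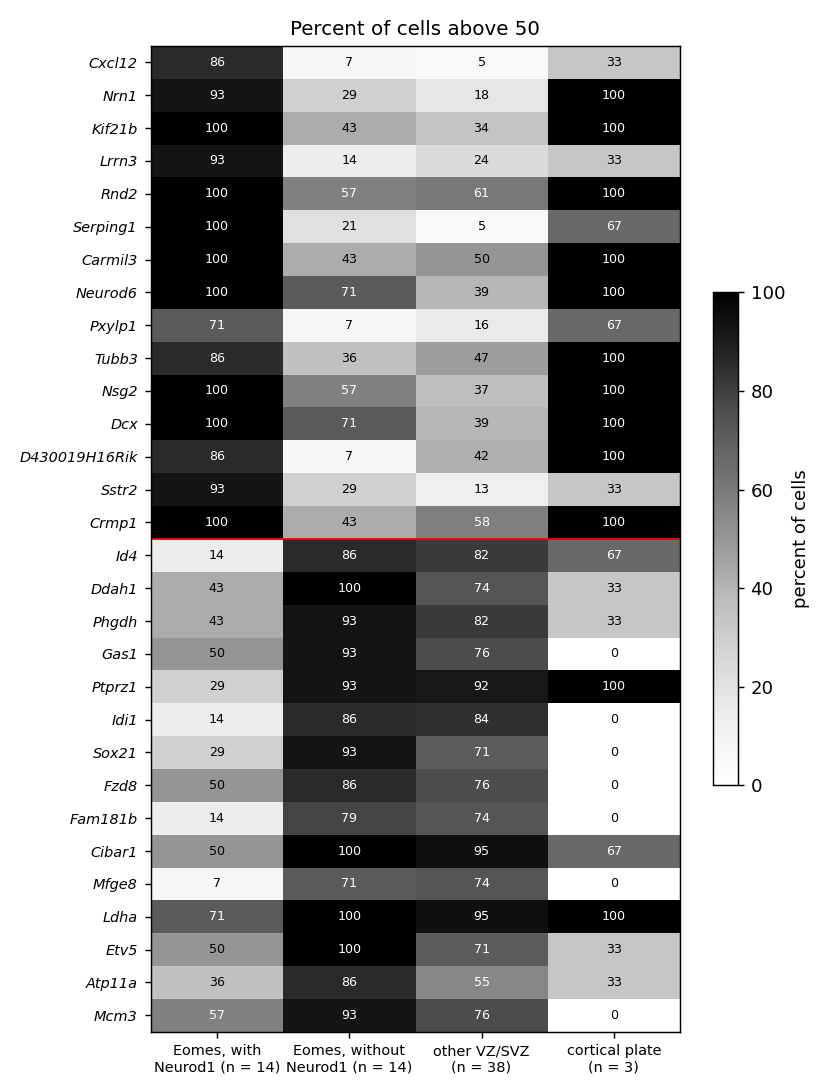
Percent of cells with a signal above 50 for the 15 genes with the largest positive differences (above the red line) and the 15 with the largest negative differences (below it), in Eomes cells with Neurod1 (n = 14), Eomes cells without (n = 14), other VZ/SVZ cells (n = 38) and CP cells (n = 3). Cxcl12 exceeded 50 in 85.7% of cells with Neurod1 and 7.14% of cells without, and Id4 in 14.3% of cells with Neurod1 and 85.7% of cells without.

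The promoter windows of the 4 highest-ranking of these genes for which a window was available are shown because they rank at the top of the contrast. No window was available for Nrn1, Kif21b, Lrrn3, Rnd2 and Serping1. A window of Nsg2 was added after its letters were found to hold the motif. Neurod1 and other neurogenic bHLH factors bind E-boxes, and the letters searched on both strands were CAGATG, which appears as CATCTG when read on the opposite strand, and CAGCTG, which is its own reverse complement. Each window runs from 250 bases before to 50 bases after the annotated start in GRCm38.p6: Cxcl12 at chr6:117168285-117168584 (plus strand), Carmil3 at chr14:55490819-55491118 (plus), Neurod6 at chr6:55681214-55681513 (minus), Pxylp1 at chr9:96889425-96889724 (minus) and Nsg2 at chr11:32000169-32000468 (plus). Capitals mark matches to these letters.
Cxcl12: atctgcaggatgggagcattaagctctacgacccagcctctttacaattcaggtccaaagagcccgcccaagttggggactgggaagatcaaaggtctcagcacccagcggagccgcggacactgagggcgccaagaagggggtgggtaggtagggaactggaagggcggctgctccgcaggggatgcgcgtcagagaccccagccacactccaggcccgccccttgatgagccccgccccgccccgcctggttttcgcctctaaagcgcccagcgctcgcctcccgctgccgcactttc
Carmil3: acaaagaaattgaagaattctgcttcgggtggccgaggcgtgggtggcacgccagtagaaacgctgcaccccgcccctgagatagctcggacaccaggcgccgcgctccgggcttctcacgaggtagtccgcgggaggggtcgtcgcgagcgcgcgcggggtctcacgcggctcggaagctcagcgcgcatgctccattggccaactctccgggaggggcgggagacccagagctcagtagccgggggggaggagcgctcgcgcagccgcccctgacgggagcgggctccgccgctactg
Neurod6: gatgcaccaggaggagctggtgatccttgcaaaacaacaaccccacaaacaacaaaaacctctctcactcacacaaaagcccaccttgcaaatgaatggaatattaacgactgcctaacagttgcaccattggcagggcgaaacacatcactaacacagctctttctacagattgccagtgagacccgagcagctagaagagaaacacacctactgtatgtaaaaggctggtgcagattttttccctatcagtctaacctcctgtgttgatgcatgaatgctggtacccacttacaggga
Pxylp1: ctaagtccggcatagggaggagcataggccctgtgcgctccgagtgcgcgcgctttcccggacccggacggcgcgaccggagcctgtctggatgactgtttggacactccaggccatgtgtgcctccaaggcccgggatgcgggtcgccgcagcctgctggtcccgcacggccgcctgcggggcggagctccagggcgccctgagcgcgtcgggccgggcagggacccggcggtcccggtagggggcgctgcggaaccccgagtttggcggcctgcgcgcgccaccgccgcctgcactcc
Nsg2: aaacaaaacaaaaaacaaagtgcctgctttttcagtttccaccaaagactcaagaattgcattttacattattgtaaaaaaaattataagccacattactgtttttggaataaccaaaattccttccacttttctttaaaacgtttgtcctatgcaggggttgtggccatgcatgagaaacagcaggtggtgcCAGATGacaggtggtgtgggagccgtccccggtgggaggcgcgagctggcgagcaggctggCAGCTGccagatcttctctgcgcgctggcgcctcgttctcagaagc

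The Nsg2 window shown held 1 CAGATG match and 1 CAGCTG match, and a second Nsg2 window, at chr11:32000450-32000749, held neither. The windows of Cxcl12, Carmil3, Neurod6 and Pxylp1 held neither, which says only that these letters are not in these 300 bases. With the first-listed window of each gene, either motif was present for 2 of the 10 top higher genes that have a window (20%) and 3 of the 13 top lower genes (23.1%). It was present for 25.5% of the 487 higher genes with a window, 20.9% of the 449 lower genes, 21.1% of 6052 genes counted and 30.4% of all 27025 promoters. The top genes stood near the share among all genes counted.

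Proneural and neurogenic transcription factors were described as a group. Of 25 measured, 14 were counted, 6 were higher in cells with Neurod1 and 0 were lower, with a median difference of 0.78 against 0.02 over all genes. Neurod6 ranged from 778 to 3396 (median 1882) in cells with Neurod1 and from 2.80 to 2177 (median 179) in cells without. Neurod2, a related bHLH factor of differentiating glutamatergic neurons, ranged from 288 to 3802 (median 901) with Neurod1 and from 5.54 to 1309 (median 51) without, a difference of 2.61. Both genes thus exceeded 50 in every cell with Neurod1, and Neurod6 did so in 10 and Neurod2 in 7 of the 14 cells without. Myt1, a zinc-finger factor of neurogenesis, ranged from 258 to 1741 (median 849) with Neurod1 and from 5.35 to 731 (median 89.4) without, a difference of 2.56. Scrt2, a Snail-family repressor of newborn neurons, exceeded 50 in 14 of 14 cells with Neurod1 and in 1 of 14 without, a gap of 92.9 percentage points (Newcombe interval 60.4 to 98.7), although its signals with Neurod1 began at 52.3. Sox11, a neuronal HMG-box factor, differed by 1.51.

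Neurog2, the proneural bHLH factor that acts upstream of Eomes and Neurod1, was above 50 in most cells of both groups. It ranged from 1212 to 5432 (median 4262) in cells with Neurod1 and from 4.21 to 5664 (median 3313) in cells without, a difference of 1.31 in all, 0.28 within letter B, 0.04 within C and 3.03 within X. No cell with Neurod1 exceeded the highest cell without it. Nhlh1, a bHLH factor of newborn neurons, was above 50 in 8 cells with Neurod1 and 2 without, with a difference of 0.55 that did not reach the size rule.

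Among intermediate progenitor markers, 19 of 22 were counted, 6 were higher and 0 were lower, with a median of 0.52. The members that differed most were Sstr2, Slc17a6 and Mfng. Slc17a6, the vesicular glutamate transporter VGLUT2, ranged from 0.323 to 3508 (median 477) in cells with Neurod1 and from 0.276 to 1068 (median 3.23) in cells without. It was detected in 12 cells with Neurod1 and 1 without, in 2 of 38 other VZ/SVZ cells and in 0 of 3 CP cells, with a difference of 2.71. Mfng, a fringe glycosyltransferase that modifies Notch receptors, ranged from 703 to 2970 (median 1246) with Neurod1 and from 1.97 to 2092 (median 595) without, a difference of 2.01. Mfng, too, exceeded 50 in 0 of 3 CP cells, and it did so in 5 of 38 other VZ/SVZ cells.

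Several early markers of the same lineage did not reach the size rule. Insm1 ranged from 1025 to 4102 (median 2279) in cells with Neurod1 and from 2.27 to 4225 (median 2087) in cells without, a difference of 0.64. Gadd45g ranged from 8.86 to 3684 (median 1242) with Neurod1 and from 1.45 to 3623 (median 1413) without, a difference of 0.09. Btg2, an antiproliferative gene of neurogenic divisions, differed by 0.68, and Hes6, a Hes family member that antagonises Hes1, by 0.27. These genes were high in most cells of both groups, and their ranges overlapped throughout.

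Genes of multipolar migration and newborn neurons had a median difference of 0.93, with 22 of 30 counted, 10 higher and 2 lower. This median was 2.0 within letter X, 0.54 without it and 0.050 within letter C. Beside Cxcl12, Rnd2, Sstr2 and Dcx, the higher members included Cdk5r1, the p35 activator of the migration kinase Cdk5. Cdk5r1 ranged from 19.4 to 2906 (median 463) in cells with Neurod1 and from 0.552 to 561 (median 8.08) in cells without, a difference of 2.49. Plxna2, a semaphorin receptor, differed by 1.85, Epha3, an ephrin receptor, by 1.82, and Unc5d, a netrin receptor of multipolar cells, by 1.64. Unc5d was detected in 7 cells with Neurod1 and in 1 without. The lower members were Nde1, a dynein regulator also used in division (-1.32), and Dab1, the Reelin adaptor (-1.27). Cntn2 (TAG-1), an adhesion molecule of differentiated axons, exceeded 50 in 0 of 14 cells of either group.

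Cytoskeletal and synaptic neuronal genes that passed the size rule were all higher in cells with Neurod1. Of 24 neuronal microtubule and growth cone genes, 19 were counted, 7 were higher and 0 were lower, with a median of 0.69. Tubb3, neuronal beta-tubulin, ranged from 1.20 to 5653 (median 1494) in cells with Neurod1 and from 1.12 to 1085 (median 8.80) in cells without. Dcx, the microtubule-binding protein doublecortin, ranged from 643 to 4245 (median 2089) with Neurod1 and from 0.529 to 1849 (median 263) without. Crmp1, a collapsin response mediator, ranged from 411 to 3298 (median 1102) with Neurod1 and from 4.67 to 2053 (median 17.7) without. Dcx and Crmp1 were thus present in every cell with Neurod1, and Tubb3 in 12 of them. Apc2, a microtubule-binding APC family member that no list holds, was above 50 in 11 cells with Neurod1 and in 0 of 14 without. With values under 50 set to 50, its mean log2 signals gave a 3.14-fold higher value with Neurod1. All cells without Neurod1 stood at that floor, so the fold depends on it. Stmn2, a stathmin of more mature neurons, exceeded 50 in 1 cell with Neurod1 and in 0 without, against all 3 CP cells.

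Of 21 synaptic and channel genes, 12 were counted, 4 were higher and 0 were lower, with a median of 0.67. Cacna2d1, an auxiliary calcium channel subunit, ranged from 1.0 to 1600 (median 584) in cells with Neurod1 and from 0.344 to 627 (median 1.04) in cells without, a difference of 2.79. Snap25, a SNARE protein of vesicle release, was detected in 11 cells with Neurod1 and 2 without and differed by 1.85. RNA-binding genes had a median of 0.50, with 15 of 20 counted, 4 higher and 1 lower. Elavl2 differed by 2.41, Elavl4 by 1.77 and Elavl3 by 1.44, all members of the neuronal Hu family, and Ptbp1, the splicing repressor of non-neural and progenitor cells, was lower at -1.35.

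Among factors of cortical layer and area identity, 19 of 23 were counted, 5 were higher and 1 was lower, with a median of 0.55. Tbr1, the T-box factor of deep-layer neurons that follows Neurod1 in the textbook sequence, ranged from 0.278 to 1308 (median 742) in cells with Neurod1 and from 0.369 to 252 (median 3.08) in cells without. It exceeded 50 in 10 cells with Neurod1 and 2 without, a difference of 2.32, and in all 3 CP cells, and 9 cells with Neurod1 lay above every cell without. Bcl11b (Ctip2), a factor of subcortical projection neurons, was detected in 8 cells with Neurod1 and 1 without and differed by 1.99. Pou3f1, a POU factor, differed by 2.38 (-0.72 within letter C) and Sox5, a deep-layer factor, by 1.59. The lower member was Emx2 (-1.52), a homeobox factor of dorsal progenitors.

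**Figure D3:**
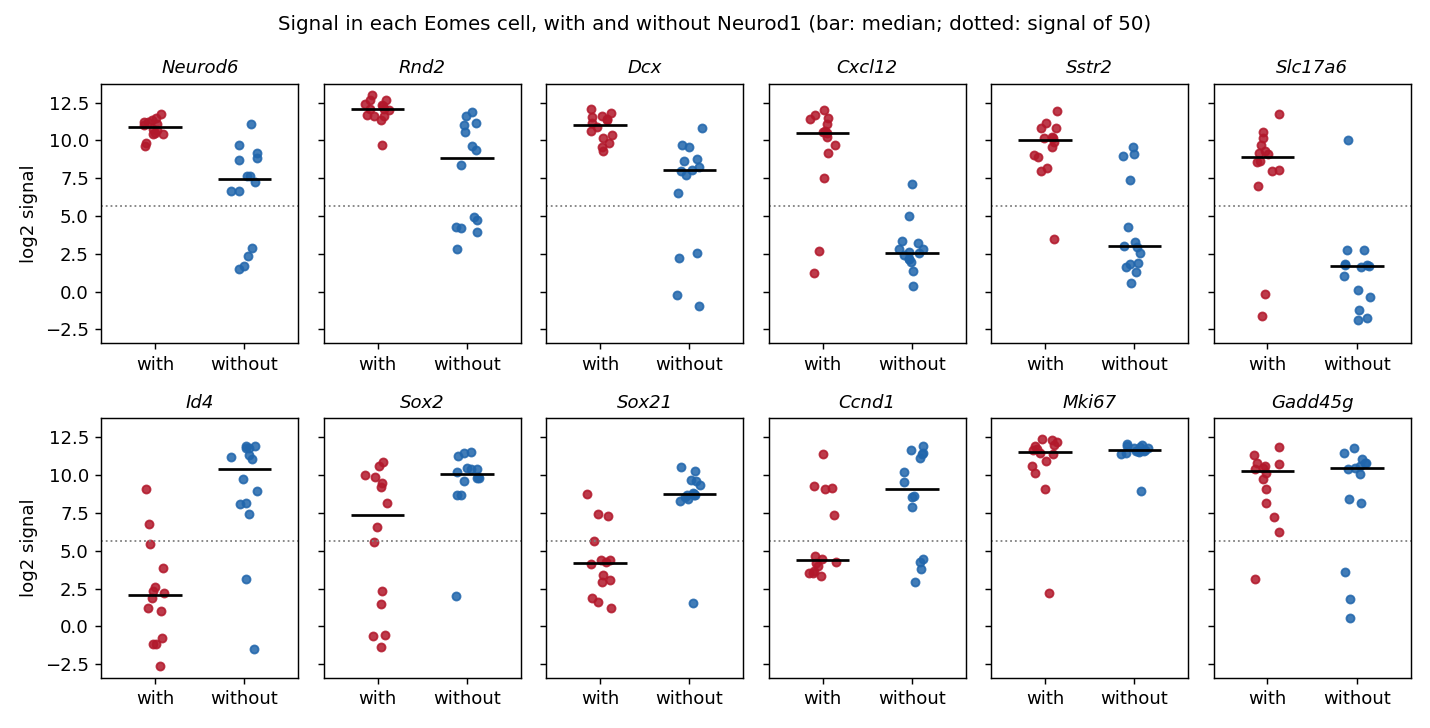
Log2 signal of 12 genes in each Eomes cell, with Neurod1 (left, n = 14) and without (right, n = 14); bars are medians and the dotted line is a signal of 50. Neurod6, Rnd2 and Dcx exceed 50 in all cells with Neurod1, Id4 in 2 of 14, and Mki67 and Gadd45g have similar medians in both groups.

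The genes with the largest negative differences were led by Id4, an inhibitor of bHLH factors expressed in radial glia. Id4 ranged from 0.164 to 556 (median 4.16) in cells with Neurod1 and from 0.348 to 3938 (median 1493) in cells without. It exceeded 50 in 2 cells with Neurod1 and 12 without, a difference of -3.65, and was above 50 in 31 of 38 other VZ/SVZ cells. No cell with Neurod1 reached the median of the cells without. Ddah1, which degrades methylated arginine, ranged from 9.13 to 1670 (median 32.4) with Neurod1 and from 581 to 5500 (median 1696) without, a difference of -3.35. In this gene 9 cells with Neurod1 lay below every cell without it. Ptprz1, a receptor phosphatase of radial glia, was detected in 4 cells with Neurod1 and 13 without (-2.94), and Mfge8, a secreted glycoprotein, in 1 with Neurod1 and 10 without (-2.66).

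The remaining genes of the 15 with the largest negative differences held enzymes, receptors and regulators. Phgdh, the entry enzyme of serine synthesis, was at -3.21 and Gas1, a Hedgehog co-receptor, at -3.04. Idi1, an isomerase of cholesterol synthesis, was at -2.90, the SoxB factor Sox21 at -2.75, the Wnt receptor Fzd8 at -2.74, Fam181b at -2.72 and Cibar1 at -2.71. Ldha, a lactate dehydrogenase subunit, was at -2.54, Etv5, an ETS factor downstream of FGF signalling, at -2.53, and the flippase gene Atp11a and the helicase subunit gene Mcm3 both at -2.44. Of these 15 genes, 2 exceeded 50 in all 3 CP cells, 6 in some and 7 in none, and they were detected in 55.3% to 94.7% of the other VZ/SVZ cells. All 15 were below 0 within letter B and within letter X, and 13 within letter C, where Fzd8 was at 0.21 and Mfge8 at 0.52. Etv5 was at -0.83 within letter B.

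The progenitor transcription factors differed in how far they were lower. Sox2, the SoxB factor of neural progenitors, ranged from 0.382 to 1898 (median 189) in cells with Neurod1 and from 3.97 to 3020 (median 1082) in cells without. It exceeded 50 in 8 cells with Neurod1 and 13 without, a difference of -2.09, which was 0.16 within letter C. Pax6, the paired-box factor of apical progenitors, ranged from 7.03 to 1345 (median 435) with Neurod1 and from 66.4 to 3469 (median 1528) without. Pax6 was therefore still detected in 13 of 14 cells with Neurod1 and in all 14 without, and its difference of -1.56 was -0.18 within letter B, -2.14 within C and -3.02 within X. Fabp7, the radial glial lipid-binding protein, exceeded 50 in all 28 cells at a difference of -1.74, and Vim, the intermediate filament vimentin, was at -1.38. Ednrb, an endothelin receptor, exceeded 50 in 0 of 14 cells with Neurod1 and in 6 without. It was thus counted only through the cells without Neurod1. With values under 50 set to 50, its mean log2 signals gave a 3.55-fold higher value in the cells without. All cells with Neurod1 stood at that floor, so the fold depends on it.

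Of 23 Notch pathway genes, 17 were counted, 6 were lower in cells with Neurod1 and 1, Mfng, was higher, with a median of -0.62. The receptors Notch2 (-2.23), Notch1 (-1.77) and Notch3 (-1.46) were all lower. Notch2 ranged from 0.244 to 762 (median 4.70) with Neurod1 and from 7.62 to 4459 (median 621) without, and was detected in 3 cells with Neurod1 and 10 without. Within letter C, Notch1 was at 0.57 and both Notch2 and Notch3 were at 0.00. The effector Hes5 was at -1.14, above 50 in 1 cell with Neurod1 and 7 without. Hes1, another effector, exceeded 50 in 0 cells with Neurod1 and 2 without, against 17 of 38 other VZ/SVZ cells. The ligand Dll1, which intermediate progenitors present to radial glia, was detected in 8 cells with Neurod1 and 9 without, with a difference of -0.62.

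Cell cycle genes were present in most cells of both groups. All 34 measured G2/M genes were counted, of which 5 were lower in cells with Neurod1 and 0 were higher, with a median of -0.34. Leaving out 1 cell moved this median to between -0.63, without replicate 13, and -0.039, without replicate 21, with -0.18 without replicate 11 and -0.08 without replicate 28. Mki67, the proliferation antigen, ranged from 4.55 to 5392 (median 3019) with Neurod1 and from 490 to 4237 (median 3215) without, and exceeded 50 in 13 cells with Neurod1 and 14 without. Cdk1, the mitotic kinase, ranged from 13.7 to 6484 (median 2170) with Neurod1 and from 89.1 to 4771 (median 2142) without, a difference of -0.65. Top2a, the topoisomerase of chromosome condensation, had medians of 5318 with Neurod1 and 5621 without and a difference of -1.24, with 4 cells with Neurod1 below every cell without.

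The G2/M median also differed between the letters. It was -0.75 within letter X, -0.13 within B and -0.39 within C, and -0.045 without the cells of letter X. A few cells of each group had fewer than 30 G2/M genes above 50. Whether the difference rests on these cells together was not tested. Per cell, 2 to 34 of the G2/M genes exceeded 50 with Neurod1 (median 34) and 7 to 34 without (median 33). At least 30 were above 50 in 10 of 14 cells with Neurod1 and in 12 of 14 without. The other 4 cells with Neurod1 had 2, 8, 17 and 20 of these genes and the other 2 cells without had 7 and 27, whereas the CP cells had 1 to 2.

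For S phase genes, 27 of 30 were counted, 4 were lower and 0 were higher, with a median of -0.62. The lower members were Mcm3, Slbp, which binds histone mRNA (-1.44), Tk1, thymidine kinase (-1.38), and Lig1, a replicative DNA ligase (-1.17). Pcna, the polymerase clamp, ranged from 216 to 5338 (median 2373) in cells with Neurod1 and from 16.7 to 8936 (median 5073) in cells without, a difference of -0.63. Mcm2, another helicase subunit, was at 0.39. S phase genes above 50 numbered 9 to 22 per cell with Neurod1 (median 19) and 14 to 27 without (median 20), against 4 to 7 in CP cells, so both groups lay above the CP cells.

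**Figure D4:**
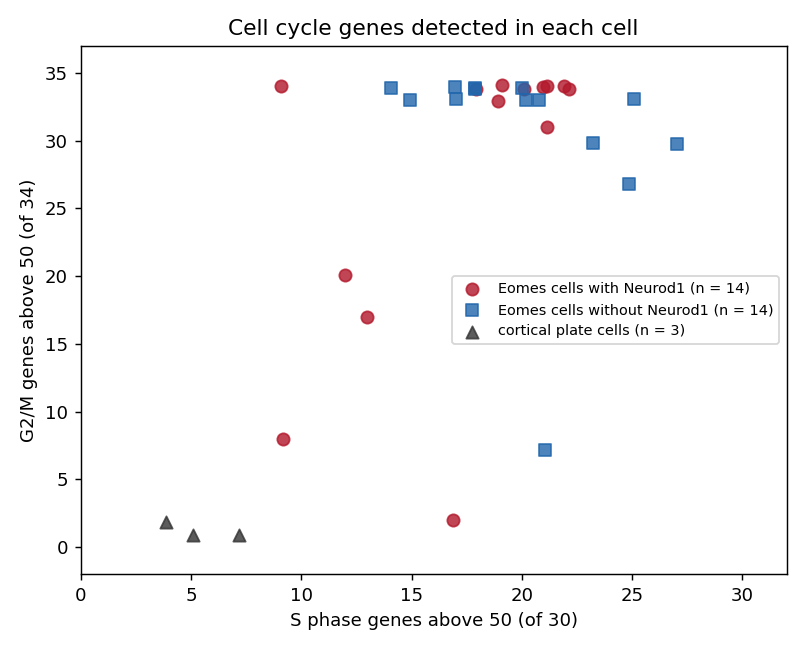
Each point is 1 cell; the x axis counts S phase genes above 50 (of 30) and the y axis G2/M genes above 50 (of 34), with points shifted slightly so that coinciding cells can be seen. Cells with at least 30 G2/M genes number 10 of 14 with Neurod1 and 12 of 14 without, and the 3 CP cells have 1 to 2.

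Among G1 cyclins, CDKs and their inhibitors, 17 of 19 were counted, 3 were lower and 1 was higher, with a median of 0.21. Ccnd1, cyclin D1, ranged from 9.86 to 2655 (median 20.7) in cells with Neurod1 and from 7.80 to 3825 (median 568) in cells without. It exceeded 50 in 5 cells with Neurod1 and 10 without, a difference of -1.99, which was 0.34 within letter C. Ccnd2, cyclin D2, ranged from 10.1 to 4629 (median 2024) with Neurod1 and from 23 to 3763 (median 2092) without, was detected in 13 cells of each group and differed by 0.26. The other lower members were E2f5, an E2F family factor (-2.36), and Rbl1, the pocket protein p107 (-1.23), and the higher member was Cdk5r1. Cdkn1c (p57), a CDK inhibitor of cell cycle exit, was above 50 in 4 cells with Neurod1 and in 1 without and was not counted.

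Cycle genes and neuronal genes were read together in single cells. Mki67 and Dcx were both above 50 in 13 of 14 cells with Neurod1 and in 10 of 14 without. Mki67 and Tubb3 coincided in 12 cells with Neurod1 and 5 without, Mki67 and Tbr1 in 9 with and 2 without, and Mki67 and Sstr2 in 12 with and 4 without. Mki67 and Rnd2 coincided in 13 cells with Neurod1 and 8 without. Among the 38 other VZ/SVZ cells, Mki67 coincided with Dcx in 5, Tubb3 in 8, Tbr1 in 1, Sstr2 in 0 and Rnd2 in 14. Since Mki67 exceeded 50 in nearly all Eomes cells, their joint counts lie close to the counts of the second gene alone. Sox2 and Tbr1 coincided in 5 cells with Neurod1 and in 1 without. Within the cells that had at least 30 G2/M genes, neuron markers numbered 9 to 17 with Neurod1 (median 16, 10 cells) and 4 to 13 without (median 8, 12 cells), and apical markers 8 to 17 with Neurod1 and 12 to 24 without. The gap in neuron markers was thus also present among cells with a nearly complete set of G2/M genes. No caller for doublets was run, and whether any cell was a doublet was not tested. Replicate 63, the cell in which Dlx2, Gad1 and Lhx6 exceeded 50, had 34 G2/M genes and 17 neuron markers above 50.

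**Figure D5:**
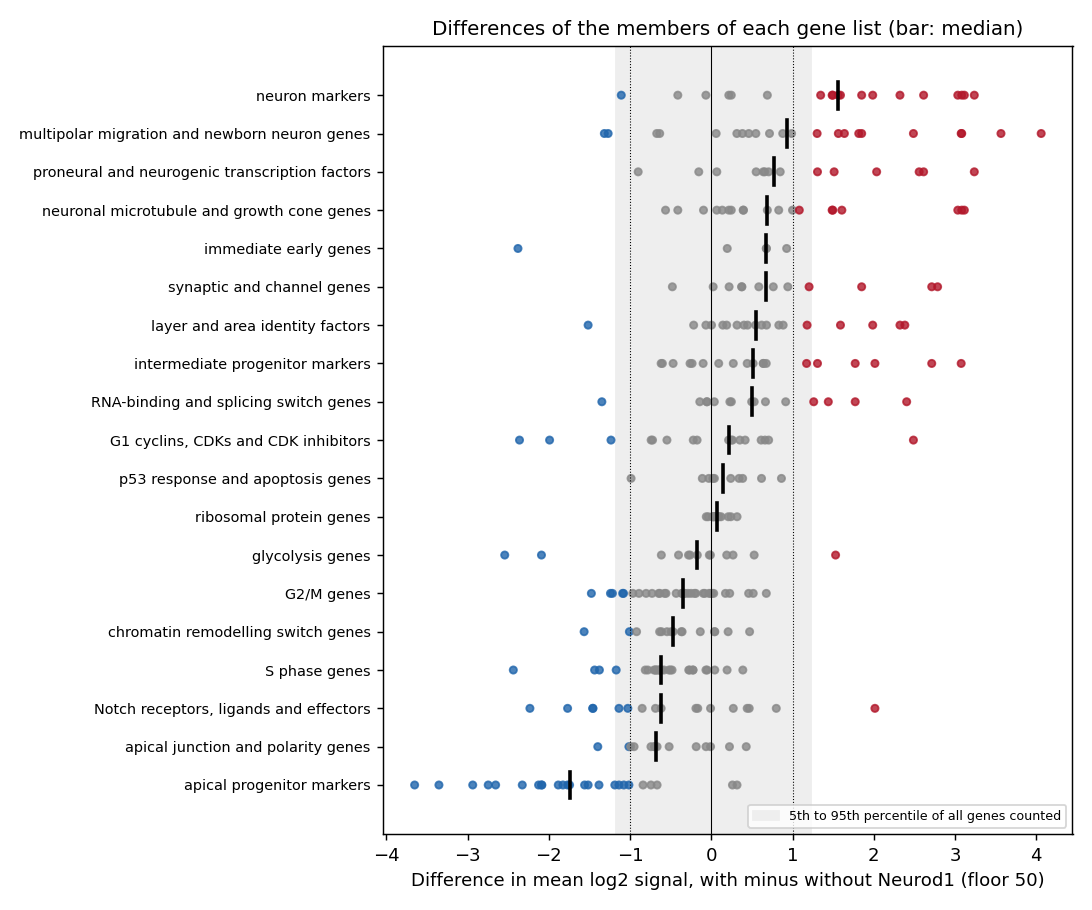
Each point is a counted member of a gene list, placed by its difference in mean log2 signal (with minus without Neurod1, floor 50); red and blue points differ by at least 1, bars are list medians and the grey band is the 5th to 95th percentile of all 7319 genes. Among the lists drawn, neuron markers have the highest median, 1.56, and apical progenitor markers the lowest, -1.74.

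For the other lists, the members past the size rule stand beside shares over all genes counted of 8.29% higher and 7.38% lower. Apical junction and polarity genes had a median of -0.68, with 14 of 18 counted, 2 lower and 0 higher. The lower members were Prkci, atypical protein kinase C (-1.40), and Prom1, the apical membrane protein prominin (-1.01). Chromatin remodelling genes had a median of -0.47, with 15 of 19 counted and 2 lower, Phf10, a subunit of the progenitor form of the BAF complex (-1.57, and 0.43 within letter C), and Hmga2, an architectural chromatin protein (-1.01, and 0.35 within letter C). Of 16 glycolysis genes, 13 were counted, with a median of -0.17; Ldha and Aldoc (-2.09, and 0.32 within letter C) were lower and Pfkl (1.53) was higher. The 15 ribosomal protein genes had a median of 0.07 and the 10 counted p53 response and apoptosis genes a median of 0.14, with no member past the size rule in either list. Of 14 immediate early genes, 5 were counted, with Jun (-2.38) lower and a median of 0.68.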

How the data were processed

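Single-cell expression arrays of the mouse embryonic dorsal forebrain were analysed from 1 deposited table of intensity values, linear probe set signals. The submitters' processing notes name MAS5 as the authors' software; its scaling target is not stated in what was used here. Values ran from 0.00577 to 11783 and were used as deposited. Depth is not defined for an array, and the number of cells limits the precision. Each cell's RNA was amplified before hybridisation, per the labels' protocols, with bacterial spike RNAs added at lysis: lys at 1000 copies, dap at 100, phe at 20 and thr at 5.

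Of 45101 probe sets, 34958 were assigned to 1 gene in the platform annotation, 932 to several and 9211 to none. By Entrez ID, 34754 matched the RefSeq table of GRCm38.p6, which altered 0 symbols. The probe set of highest mean log2 signal stood for each of 18194 genes. Values below 50 were set to 50 before log2, and the threshold of 50 defined detection. Genes above 50 in at least 6 of the Eomes cells were counted, leaving out Eomes and Neurod1. Shares carry exact Clopper-Pearson intervals, and their differences Newcombe intervals, at 95%, covering counting error only.

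Between pairs of the 69 cells, correlations of log2 signals over all probe sets lay between 0.475 and 0.672, and 0 pairs were identical. Genes named were the 15 with the largest difference in each direction, detected in at least 7 cells of the higher group, a set of lineage and cycle genes, and in each list the members, 4 at most, that differed most in either direction. Other list members past the size rule, Apc2 and the genes of the closing section were named after their values were seen. The cells, the 26 lists and the named genes were chosen with earlier results of these data known. Alternatives covered the floor, scaling, probe set, filter, size rule, mean or median, thresholds of the split, title letters and each cell in turn. The calculation was tested on simulated data, with a known rise put only into genes detected in most Eomes cells. A rise in genes at the floor in many cells was not covered. Python 3.11.15, numpy 2.4.6, pandas 2.3.3, scipy 1.17.1, statsmodels 0.14.6 and matplotlib 3.10.9 were used.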

Additional observations from a re-analysis of the deposited data

How the results depend on the processing

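No paired analysis was possible because each cell is a sample of its own and no test was made. The 607 higher and 540 lower genes became 1421 and 1227 with the floor lowered to a signal of 6.26 from the TrpnX controls, 304 and 294 with a floor of 100, 302 and 242 when a gene's probe sets were averaged, 72 and 52 at 2 log2 units, 1076 and 871 with medians over cells, 1904 and 1376 with cells of letter X alone (3 with Neurod1, 5 without), 1260 and 1586 in letter C (5 with, 2 without), 439 and 343 when detection in 14 cells was required and 890 and 849 in letter B. Leaving out each cell gave 564 to 662 higher and 514 to 615 lower genes. The median of the apical progenitor markers was -1.10 with the mean of probe sets, -2.97 in letter X, -0.95 without letter X, -1.02 in letter B and 0 in letter C, and -1.89 to -1.49 leaving out each cell. That of the neuron markers was 2.72 with the TrpnX floor, 0.83 with the mean of probe sets, 3.38 in letter X and 0.52 in letter C, and 1.42 to 1.73 leaving out each cell. That of the multipolar genes was 1.54 with the TrpnX floor, 0.42 with no filter, 2.0 in letter X, 0.54 without it and 0.050 in letter C, and 0.80 to 1.07 leaving out each cell. The G2/M median was -0.61 with the TrpnX floor, -0.21 with the mean of probe sets, -0.12 with medians over cells, -0.75 in letter X, -0.045 without it and -0.13 in letter B, and -0.63 to -0.039 leaving out each cell. The S phase median was -0.37 with the mean of probe sets, -0.38 with medians over cells and -1.23 in letter C, and -0.66 to -0.43 leaving out each cell. Of 93 named differences of at least 1, 75 kept their sign in letter C, where Kif21b (-0.67), Pou3f1 (-0.72), Dpysl5 (-0.94), Fzd8 (0.21), Mfge8 (0.52), Sox2 (0.16), Ccnd1 (0.34), Kif23 (0.61), Notch1 (0.57), Phf10 (0.43), Hmga2 (0.35), Aldoc (0.32) and Fgfr3 (0.23) reversed. In letter X 92 did, with Rtn1 at -0.41, and all 93 in the other alternatives. Those that stayed at 1 or more numbered 50 in letter C, 69 with the mean of probe sets, 75 without letter X, 76 in letter B, 82 with a floor of 100 and with medians over cells, and 88 to 93 in the others. The cause of these shifts was not tested. The share of higher genes among those called was 52.9%, and ran from 44.3% in letter C to 58.1% at 2 log2 units. Splitting the Eomes cells by the second Neurod1 probe set gave 12 cells with Neurod1 and 16 without. There 497 genes were higher and 581 lower, so the share of higher genes was 46.1%. This split, the use of letters B and C alone and the alternatives for the apical and multipolar lists were chosen after the data had been seen. The median of all genes reached 0.13 in letter X and stayed within 0.07 of 0 elsewhere. Detection of rare transcripts, shown by the spike at 5 copies, limits the shares of cells.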

Other observations

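Some further genes that were lower in cells with Neurod1 belong to shared pathways. The lists of those pathways were put together after the values had been seen, around genes named above (Idi1, Etv5 and Phgdh), so their counts are a description. Of 17 cholesterol synthesis genes measured, 13 were counted, 4 were lower and 0 were higher, and all 13 differences were below 0 (median -0.71, against 0.02 over all genes counted). Beside Idi1, the lower members were Hmgcs1, the synthase that precedes HMG-CoA reductase (-2.13), Sqle, squalene epoxidase (-1.52), and Nsdhl, a sterol dehydrogenase (-1.19). Hmgcs1 ranged from 12.1 to 2551 (median 692) in cells with Neurod1 and from 24.6 to 5421 (median 2466) in cells without, and was detected in 12 cells with Neurod1 and 13 without. Of 15 FGF and ERK response genes, 7 were counted and 5 were lower (median -2.11). These were Etv5, the receptors Fgfr3 (-2.33, and 0.23 within letter C), Fgfr2 (-2.11) and Fgfr1 (-1.26), and Spred2, an inhibitor of the ERK pathway (-2.29), above 50 in 1 cell with Neurod1 and in 10 without. Of 8 serine and one-carbon genes, 3 were lower (median -0.73), namely Phgdh and the folate enzymes Mthfd2 (-1.25) and Mthfd1 (-1.16), while Gldc, of the glycine cleavage system, stood at 0.83.

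Several other genes had large gaps in the share of cells above 50, with overlapping ranges. Trappc2l, a subunit of a vesicle-tethering complex, exceeded 50 in 14 cells with Neurod1 and in 4 without. It ranged from 240 to 1722 (median 857) with Neurod1 and from 5.54 to 866 (median 11.9) without, a difference of 2.89. Tiam2, a Rac exchange factor of migrating neurons, was detected in 12 cells with Neurod1 and 1 without (2.42), Celsr3, an atypical cadherin of axon guidance, in 11 with and 1 without (1.98), and Fcho1, an endocytic adaptor, in 13 with and 3 without (1.91). In the other direction were Suclg2, a subunit of mitochondrial succinyl-CoA ligase, and Fam167a. Each exceeded 50 in 0 of 14 cells with Neurod1 and in 9 of 14 without. With values under 50 set to 50, their mean log2 signals gave 4.68-fold and 4.02-fold higher values in the cells without. All cells with Neurod1 stood at that floor for both genes, so the folds depend on it. Tns3, a focal adhesion protein, was above 50 in 1 cell with Neurod1 and in 10 without. Of the 7319 genes counted, 14 exceeded 50 in cells with Neurod1 alone and 19 in cells without Neurod1 alone. Such genes met the filter of 6 Eomes cells only through the group where they were detected, so these counts are a description.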
